A study of Homo sapiens with 12 samples.

Results

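The genes of cholesterol synthesis, uptake and efflux were described across 12 RNA sequencing libraries of HL60 cells, a promyelocytic line from a human acute myeloid leukaemia. The members were 32 genes taken by symbol from a list, out of 57820 genes in the deposited table. All 32 were found and all 32 passed the filter of a mean of at least 10 normalized reads that left 23128 genes for testing. Of the 32, 20 had a mean of at least 200 and are called expressed below. The cells carried either an empty lentiviral vector (EV, pRRL-EV-puro) or a vector for the S211A form of TFEB (pRRL-TFEBS211A-puro). Vehicle and doxycycline samples were taken from each line, and the protocol listed for every sample, vehicle included, gives 1 µg/ml for 48 h. This gave 4 groups of 3 replicates, named EV-Veh and EV-Dox for the empty vector and TFEB-Veh and TFEB-Dox for TFEB, where Veh is vehicle and Dox doxycycline. All 4 groups grew in RPMI medium with serum. The series describes the replicates as independent experiments, but the labels do not say how they were cultured or whether either line is 1 clone. The p-values therefore measure only the spread between these samples, part of which may be technical.

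Cells make cholesterol from acetyl-CoA through mevalonate, farnesyl diphosphate, squalene and lanosterol. The transcription factor SREBP-2, product of SREBF2, is escorted by SCAP and held in the endoplasmic reticulum by INSIG proteins when sterol is plentiful, and it turns on nearly every enzyme of the route when sterol is low. When sterol accumulates, the liver X receptors (LXR, NR1H2 and NR1H3) bind oxysterols and turn on the efflux pumps ABCA1 and ABCG1, the apolipoproteins APOE and APOC1, and MYLIP, a ubiquitin ligase that removes lipoprotein receptors. TFEB, a transcription factor of lysosomal and autophagy genes, binds E-box elements with the core CACGTG, and the lysosome is where cholesterol from lipoproteins is released.

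RefSeq promoter windows (GRCh38.p14, 250 bases before to 50 after a start site) were found for 28 of the 32 members, in 39 windows, and were searched on both strands. The E-box core CACGTG was in a window of 5 of these 28 members, against 8.77% of the 27305 genes with a window. The longer form TCACGTGA, which contains the core, was in 1 member and 1.18% of genes, and the sterol element TCACNCCAC was in 1 member and 1.39% of genes. No member held the LXR direct repeat known as DR4, made of spaced AGGTCA repeats, which was in 0.0256% of genes. For each of the 6 members with a match, 1 site is shown. Each is 30 bases, on the strand of the gene, with the match in capitals.
LSS, chr21:46228725-46228754, minus strand, match beginning 40 bases after the start site: gcagcagcaatgacggagggCACGTGagtc
SC5D, chr11:121292628-121292657, plus strand, 131 bases before: gcgcgcggcgccCACGTGaccgcggagagc
INSIG1, chr7:155297811-155297840, plus strand, 56 bases before: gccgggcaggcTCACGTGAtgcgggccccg
SCAP, chr3:47475982-47476011, minus strand, 58 bases before: cgccgctgggcgCACGTGcggagggcggcg
ABCA1, chr9:104928285-104928314, minus strand, 147 bases before: gggccccggctcCACGTGctttctgctgag
SREBF2 (sterol element), chr22:41832962-41832991, plus strand, 133 bases before: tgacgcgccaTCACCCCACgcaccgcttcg
Of the 5 genes with an E-box in these windows, LSS and SC5D rose under each scaling between TFEB-Dox and TFEB-Veh, as given below. In that comparison SCAP, INSIG1 and ABCA1 were not called on the deposited scale. They were called lower on the expressed-gene scale explained below (-0.79, -0.53 and -0.91). A match is a string of letters and not a measured binding site.

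The libraries differed in depth. They held 4474007 to 22488047 reads, and even on the deposited scale their totals ran from 4012762 in EV-Dox replicate 3 to 22302095 in EV-Veh replicate 2. Changes are therefore given on the deposited scale and on an expressed-gene scale, where each library was divided by its median ratio over the 7290 expressed nuclear genes. Between TFEB-Dox and TFEB-Veh the median log2 change of these 7290 genes was 0.73 on the deposited scale and -0.02 on the expressed-gene scale, and that of all 23128 tested genes was 0.00 and -0.72. A call means an adjusted p under 0.05 in limma, adjusted over all tested genes, and a gene is said to rise or fall under each scaling where it was called in the same direction on both of these scales and after TMM, equal-total and upper-quartile scaling, 5 in all. Mitochondrial genes took 13.3% to 17.9% of TFEB-Dox libraries and 21.0% to 33.1% of the others. All 9 promyelocytic markers, such as MPO and PRTN3, were detected, and their sum was 66400 to 218000 in EV-Veh, 49400 to 96100 in TFEB-Veh, 5210 to 30600 in EV-Dox and 10600 to 15200 in TFEB-Dox. MPO made up most of the sum in the controls, with a mean of 63170 in TFEB-Veh and 5604 in TFEB-Dox. Between these 2 groups 4 of the 9 fell and 0 rose under each scaling, beside 4.47% and 12.6% of all tested genes. With doxycycline in the EV line 7 of the 9 fell and 0 rose under each scaling, beside 5.75% and 3.39%. Between TFEB-Dox and EV-Dox 0 fell and 0 rose by this rule, beside 5.37% and 13.3%. ELANE, SPI1 and CEBPA averaged 2544, 2508 and 28.5 in TFEB-Veh and 2458, 3447 and 58.0 in TFEB-Dox. TFEB lay between 79.8 and 196 normalized reads in the 9 control libraries and between 14470 and 22629 in the 3 TFEB-Dox libraries, with no split between reads of the vector and of the cell's own gene. In bulk samples such as these, fewer cells of a type and less RNA per cell cannot be told apart.

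With TFEB induced, a few members rose strongly while most of the pathway did not follow them. Against TFEB-Veh, 8 of 32 members rose under each scaling: the enzymes ACAT2, LSS, EBP and SC5D, the cholesterol-esterifying enzyme SOAT1, the receptor NR1H2 and the apolipoproteins APOE and APOC1. One enzyme, TM7SF2, fell under each scaling. Of all tested genes 12.6% rose and 4.47% fell by the same rule. On the deposited scale 11 members were called higher and 1 lower, where 17.4% and 4.66% of all genes were called, or 31.5% and 3.51% of expressed genes. On the expressed-gene scale 9 were called higher and 13 lower, where 14.4% and 20.7% of all genes were. Among the 20 expressed members 7 were higher and 8 lower on that scale, against 34.4% and 33.2% of all expressed genes, so their shares lay close to those of expressed genes. The median log2 change of the 32 members was 0.40 on the deposited scale and turned to -0.33 on the expressed-gene scale. On the deposited scale the higher count was 6 without TFEB-Veh replicate 1 or TFEB-Dox replicate 2 and 7 without TFEB-Dox replicate 3, and on the expressed-gene scale it stayed between 8 and 10 with any 1 library left out.

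**Figure D1:**
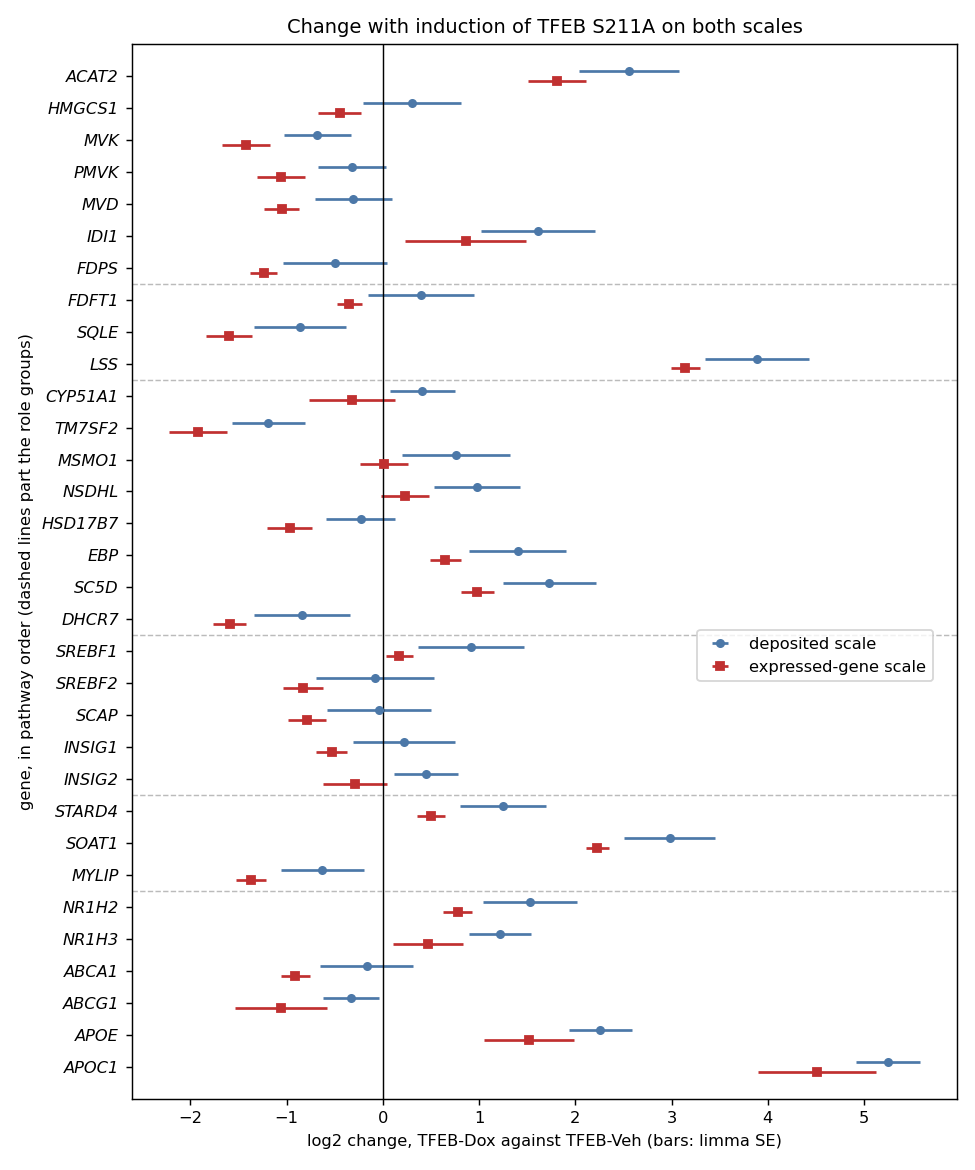
Log2 change of each of the 32 genes between TFEB-Dox and TFEB-Veh, in pathway order, on the deposited scale (circles) and the expressed-gene scale (squares), with bars for the limma standard error. LSS, at 3.89 and 3.14, and APOC1, at 5.25 and 4.51, lie far to the right on both scales, TM7SF2 lies to the left on both, and genes such as INSIG1 lie on opposite sides of 0 on the 2 scales.

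The first 7 enzymes lead from acetyl-CoA to farnesyl diphosphate. ACAT2, the cytosolic thiolase that joins 2 acetyl-CoA units, rose. It had 668, 1018 and 907 normalized reads in EV-Veh, 335, 195 and 167 in EV-Dox, 293, 561 and 1020 in TFEB-Veh and 1930, 4576 and 3919 in TFEB-Dox. Every TFEB-Dox library lay above all 9 controls, a separation in this direction seen for 13.6% of all tested genes. Its log2 change against TFEB-Veh was 2.56 (SE 0.52, limma adjusted p = 0.000173) on the deposited scale and 1.81 on the expressed-gene scale. The exons of ACAT2 overlap those of SOD2, a mitochondrial superoxide dismutase gene on the opposite strand, over 1106 bases in GENCODE 29, and those of TCP1 over 397 bases. SOD2 had 607 ± 125 normalized reads in TFEB-Veh and 4664 ± 1219 in TFEB-Dox (SD, n = 3), and TCP1 had 1839 ± 597 and 1624 ± 298. The ratio of ACAT2 to SOD2 was 0.609, 0.767 and 1.68 in TFEB-Veh and 0.568, 0.785 and 0.823 in TFEB-Dox, so the groups overlapped in this ratio. Whether the counting used strand is unknown here, and the part of SOD2 reads in the ACAT2 values was not tested.

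The next enzymes did not rise with ACAT2 under each scaling. HMGCS1, which makes HMG-CoA, had 821 ± 401 normalized reads in TFEB-Veh and 949 ± 326 in TFEB-Dox (SD, n = 3) and was not called on either scale (log2 change 0.30 and -0.45). The kinases MVK and PMVK, the decarboxylase MVD and the prenyl transferase FDPS had deposited-scale changes of -0.68, -0.32, -0.31 and -0.50, none called, and expressed-gene changes of -1.42, -1.06, -1.05 and -1.24, all called lower. IDI1, the isomerase of the 5-carbon units, had 247, 598 and 792 normalized reads in EV-Veh, 147, 118 and 82.5 in EV-Dox, 88.6, 262 and 765 in TFEB-Veh and 225, 1658 and 1374 in TFEB-Dox. The TFEB groups overlapped, since TFEB-Dox replicate 1 lay below TFEB-Veh replicates 2 and 3. IDI1 was called higher on the deposited scale, by 1.61 (SE 0.59, limma adjusted p = 0.045), but not on the expressed-gene scale (0.86, adjusted p = 0.264), nor on the deposited scale without TFEB-Veh replicate 1 or 2 or TFEB-Dox replicate 2 or 3 (adjusted p from 0.0922 to 0.439).

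Neighbouring enzymes parted at lanosterol. FDFT1 joins farnesyl units into squalene, SQLE oxidises squalene, and LSS closes the epoxide into lanosterol. LSS had 754, 1515 and 619 normalized reads in EV-Veh, 452, 311 and 132 in EV-Dox, 360, 689 and 741 in TFEB-Veh and 9529, 9743 and 6441 in TFEB-Dox. All 3 TFEB-Dox libraries lay above all 9 controls. The log2 change against TFEB-Veh was 3.89 on the deposited scale (SE 0.54, limma adjusted p = 1.77e-07) and 3.14 on the expressed-gene scale (SE 0.15, limma adjusted p = 1.36e-10). The antisense gene AP001468.1, whose exons overlap LSS over 448 bases, also went up, from 16.7 ± 8.5 to 133 ± 55.8 (SD, n = 3), a level far under that of LSS. SQLE, the step just before, had 505, 1074 and 560 normalized reads in EV-Veh, 260, 216 and 94.2 in EV-Dox, 237, 451 and 562 in TFEB-Veh and 114, 329 and 268 in TFEB-Dox. Its TFEB groups overlapped, and its change was -0.86 on the deposited scale (SE 0.48, limma adjusted p = 0.218) and -1.60, called lower, on the expressed-gene scale (SE 0.24, limma adjusted p = 4.57e-05). FDFT1 had 1313 ± 494 normalized reads in TFEB-Veh and 1663 ± 401 in TFEB-Dox (SD, n = 3) and was not called on either scale; its change turned from 0.40 to -0.35.

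Ratios between 2 genes of 1 library do not depend on how the library is scaled. The pairs below were chosen after their values were seen, so the ratios are given as a description with no test. The ratio of LSS to SQLE was 1.11 to 1.74 in the 9 controls and 83.4, 29.6 and 24.0 in TFEB-Dox. LSS alone took 6.33% to 7.85% of the summed reads of the 18 synthesis enzymes in the 9 controls and 53.8%, 37.2% and 33.2% in TFEB-Dox, without a correction for transcript length. Leaving LSS out, the share of SQLE among the other 17 enzymes was 5.56% ± 0.296 in TFEB-Veh and 1.82% ± 0.370 in TFEB-Dox, and that of FDPS was 15.1% ± 1.94 and 6.35% ± 1.66 (SD, n = 3). The share of ACAT2 among these 17 went the other way, from 8.01% ± 2.23 in TFEB-Veh to 27.2% ± 3.36 in TFEB-Dox (SD, n = 3). A larger ACAT2 share lowers the shares of the rest, and the part of SOD2 reads in it was not tested. The proportions among the enzyme reads thus differed between TFEB-Veh and TFEB-Dox.

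**Figure D2:**
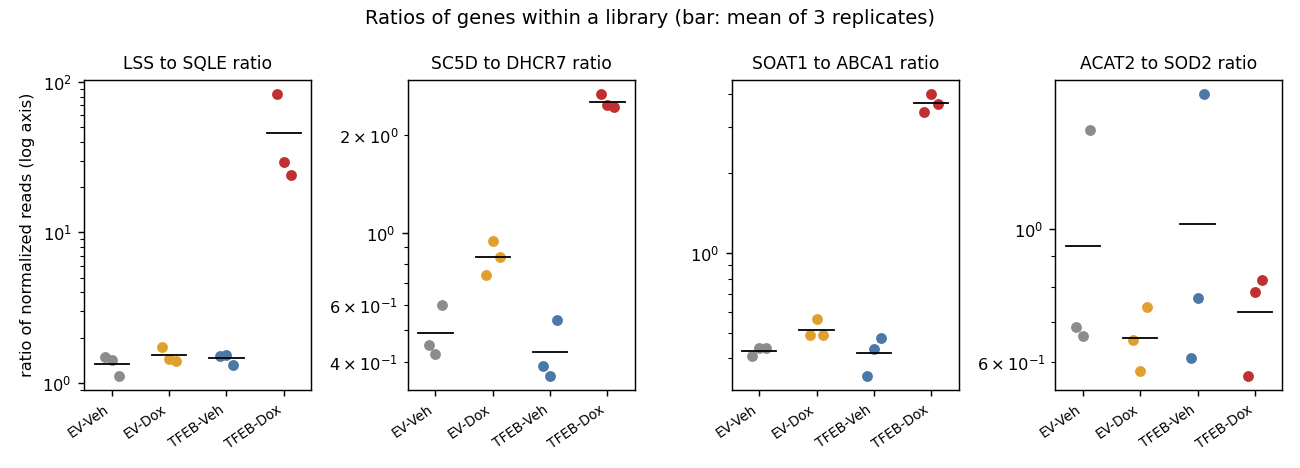
Ratios of normalized reads of 2 genes within each library on log axes, by group, with points for the 3 replicates and a bar for their mean. In the first 3 panels the TFEB-Dox libraries stand above all 9 controls (LSS to SQLE 24.0 to 83.4 against 1.11 to 1.74), while the ratio of ACAT2 to its antisense neighbour SOD2 overlaps between the groups.

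Between lanosterol and cholesterol, 8 enzymes were measured, and they parted in both directions. SC5D, the sterol desaturase, and EBP, the sterol isomerase that acts just before it, rose under each scaling. SC5D had 307, 625 and 327 normalized reads in EV-Veh, 271, 210 and 87.0 in EV-Dox, 144, 303 and 354 in TFEB-Veh and 595, 1128 and 849 in TFEB-Dox. It was higher in every TFEB-Dox library than in every TFEB-Veh library, and the log2 difference was 1.73 (SE 0.48, limma adjusted p = 0.00571). On the expressed-gene scale this difference was 0.98. EBP had 665, 1173 and 636 normalized reads in EV-Veh, 386, 200 and 127 in EV-Dox, 349, 527 and 671 in TFEB-Veh and 965, 1916 and 1227 in TFEB-Dox. The 2 TFEB groups did not overlap, and the change was 1.40 (SE 0.50, limma adjusted p = 0.0362) and 0.65 on the expressed-gene scale. The deposited-scale EBP call ended without 6 of the 12 libraries, each of TFEB-Veh replicates 1 and 2, TFEB-Dox replicates 2 and 3, EV-Veh replicate 1 and EV-Dox replicate 2, with adjusted p from 0.0522 to 0.204. The SC5D call ended without TFEB-Veh replicate 1 (adjusted p = 0.0767) or TFEB-Dox replicate 2 (0.053), and on the expressed-gene scale both genes were called in 12 of 12 such fits.

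TM7SF2, one of the enzymes that reduce the sterol ring, fell. It had 110, 210 and 67.8 normalized reads in EV-Veh, 233, 164 and 69.1 in EV-Dox, 75.8, 98.8 and 82.4 in TFEB-Veh and 45.1, 30.1 and 36.7 in TFEB-Dox. The 3 TFEB-Dox libraries were below all 9 controls, as for 2.95% of all tested genes. Its log2 change against TFEB-Veh was -1.19 (SE 0.38, limma adjusted p = 0.0174) and -1.92 on the expressed-gene scale, and the deposited-scale call ended without TFEB-Veh replicate 2, TFEB-Dox replicate 2 or TFEB-Dox replicate 3 (adjusted p = 0.0721, 0.106 and 0.0539). DHCR7, the last reductase of one branch, had 622 ± 235 normalized reads in TFEB-Veh and 342 ± 117 in TFEB-Dox (SD, n = 3), a change of -0.84 that was not called on the deposited scale (limma adjusted p = 0.247) and of -1.59, called lower, on the expressed-gene scale. The ratio of SC5D to DHCR7 was 0.361 to 0.943 in the 9 controls and 2.68, 2.47 and 2.44 in TFEB-Dox. HSD17B7, a ketosteroid reductase, was called lower on the expressed-gene scale (-0.97) and not on the deposited scale (-0.23); its pseudogene HSD17B7P2 had a mean of 28.4 reads. The demethylase CYP51A1, the methyl oxidase MSMO1 and the dehydrogenase NSDHL were not called on either scale, with deposited changes of 0.41, 0.76 and 0.98 and expressed-gene changes of -0.32, 0.01 and 0.23.

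**Figure D3:**
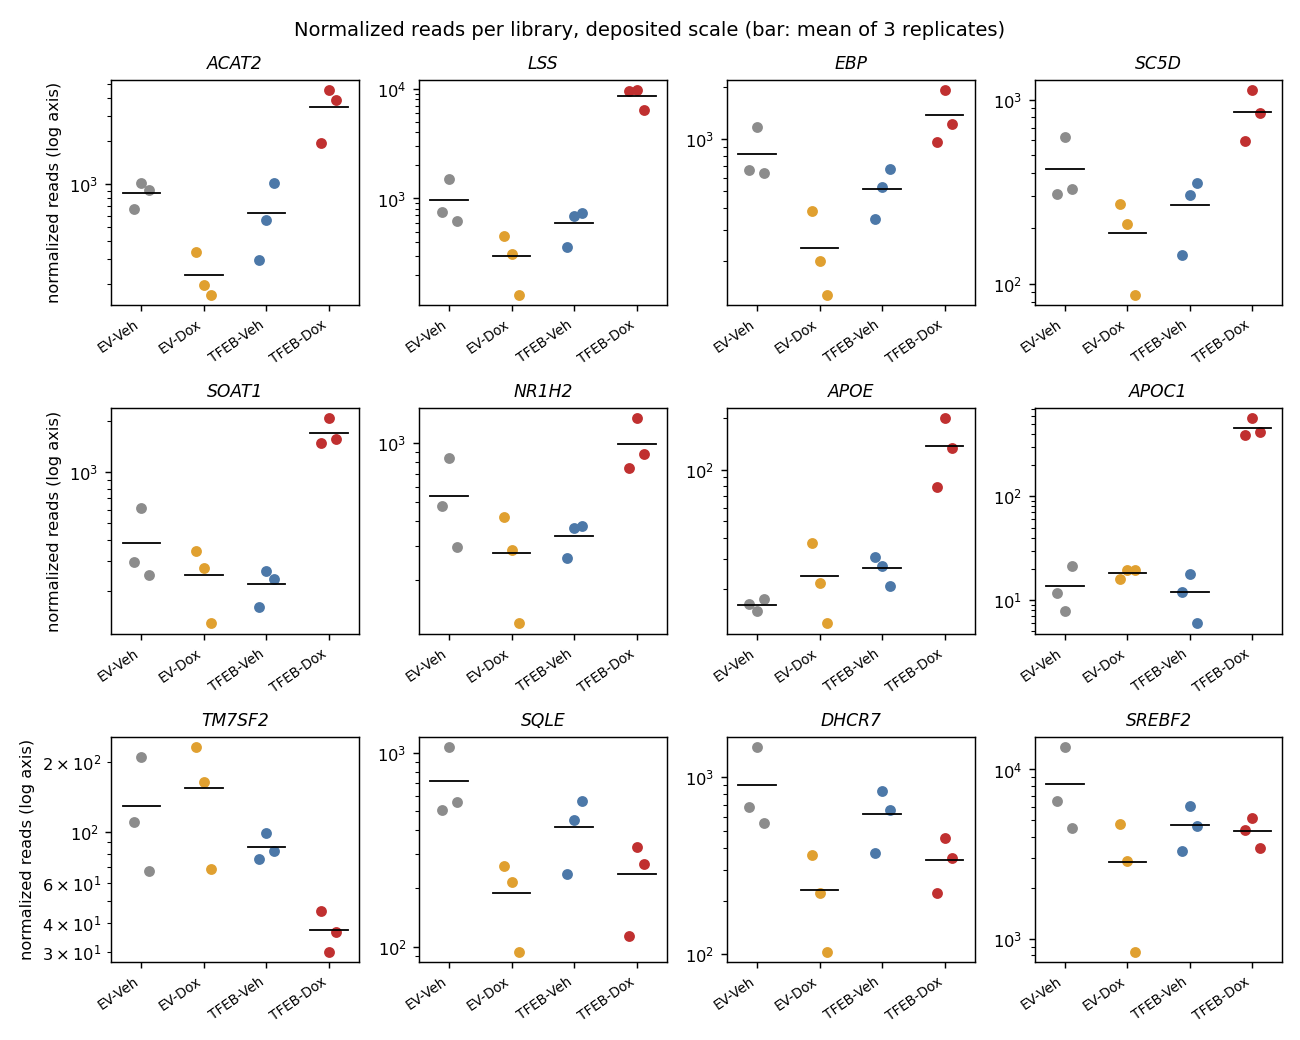
Normalized reads of 12 genes in each library on log axes, deposited scale, with points for the 3 replicates of each group and a bar for their mean. ACAT2, LSS, SOAT1, APOE and APOC1 stand above all 9 controls in TFEB-Dox and TM7SF2 below them, while SQLE, DHCR7 and SREBF2 overlap with the control groups.

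None of the 5 SREBP regulators was called on the deposited scale in this contrast. SREBF2, which encodes the main activator of the enzymes, had 6514, 13584 and 4543 normalized reads in EV-Veh, 4774, 2868 and 839 in EV-Dox, 3298, 6099 and 4639 in TFEB-Veh and 4404, 5204 and 3456 in TFEB-Dox. The TFEB groups overlapped, and the deposited-scale change was -0.08 (SE 0.61, limma adjusted p = 0.943). The expressed-gene change was -0.83, called lower (SE 0.21, limma adjusted p = 0.00551). SREBF1, whose products favour fatty acid genes, had 907, 2017 and 747 in EV-Veh, 1452, 1043 and 376 in EV-Dox, 494, 937 and 904 in TFEB-Veh and 1092, 2017 and 1296 in TFEB-Dox. All TFEB-Dox values exceeded those of TFEB-Veh, but the change was not called on either scale (0.92 and 0.17). INSIG1, a retention protein that is itself an SREBP target, had 990, 1791 and 779 in EV-Veh, 537, 360 and 118 in EV-Dox, 446, 929 and 844 in TFEB-Veh and 659, 1050 and 801 in TFEB-Dox. Its direction depended on the scale: 0.22, not called, on the deposited scale and -0.53, called lower, on the expressed-gene scale (SE 0.16, limma adjusted p = 0.0145). INSIG2, its relative, had 56.2, 120 and 90.1 in EV-Veh, 85.8, 63.7 and 47.5 in EV-Dox, 54.8, 60.3 and 87.4 in TFEB-Veh and 94.3, 80.7 and 97.8 in TFEB-Dox. It was not called (0.45 and -0.29). The escort SCAP was called lower on the expressed-gene scale (-0.79) and not on the deposited scale (-0.04).

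Among genes of sterol handling, SOAT1, which esterifies cholesterol for storage in droplets, rose. It had 294, 611 and 248 normalized reads in EV-Veh, 342, 271 and 128 in EV-Dox, 159, 261 and 233 in TFEB-Veh and 1484, 2075 and 1564 in TFEB-Dox. All 3 TFEB-Dox libraries were above all 9 controls. SOAT1 changed by 2.98 (SE 0.47, limma adjusted p = 2.69e-06) on the deposited scale and by 2.23 on the expressed-gene scale (SE 0.12, limma adjusted p = 4.83e-10), and the call stood in 12 of 12 fits that left 1 library out. STARD4, a carrier that moves sterol between membranes, had 281, 537 and 250 in EV-Veh, 200, 161 and 59.2 in EV-Dox, 149, 259 and 294 in TFEB-Veh and 501, 615 and 500 in TFEB-Dox. It was called higher on the deposited scale (1.25, SE 0.45, limma adjusted p = 0.0397) and under 4 of the 5 scalings, with equal totals the exception (adjusted p = 0.0654). Its deposited-scale call ended without any 1 of 7 libraries, TFEB-Veh replicates 1 and 2, the 3 TFEB-Dox replicates, EV-Veh replicate 1 and EV-Dox replicate 2, with adjusted p from 0.0519 to 0.22. MYLIP had 270 ± 98.9 normalized reads in TFEB-Veh and 166 ± 25.6 in TFEB-Dox (SD, n = 3), a change of -0.63 that was not called and of -1.37, called lower, on the expressed-gene scale.

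The LXR genes did not move as one set. Both apolipoproteins and the receptor NR1H2 rose under each scaling, and neither efflux pump was called higher. APOC1, a lipoprotein component made by macrophages, had 11.7, 7.93 and 21.3 normalized reads in EV-Veh, 16.1, 19.3 and 19.7 in EV-Dox, 11.9, 17.7 and 5.96 in TFEB-Veh and 390, 563 and 418 in TFEB-Dox. Its change of 5.25 (SE 0.33, limma adjusted p = 5.46e-17) was the largest among the 32 members. On the expressed-gene scale this change was 4.51. APOE, which carries cholesterol out of macrophages, had 16.4, 14.9 and 17.4 in EV-Veh, 37.4, 21.8 and 12.6 in EV-Dox, 31.0, 27.3 and 20.9 in TFEB-Veh and 79.6, 199 and 133 in TFEB-Dox. It rose by 2.26 (SE 0.33, limma adjusted p = 7e-07) and by 1.52 on the expressed-gene scale. On that scale its call stood in 8 of 12 fits that left 1 library out. For both apolipoproteins all TFEB-Dox libraries were above all 9 controls. A change on the log2(value + 1) scale understates the rise of genes with so few reads in the controls.

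NR1H2, the widely expressed LXR, had 480, 840 and 295 normalized reads in EV-Veh, 420, 286 and 120 in EV-Dox, 259, 371 and 377 in TFEB-Veh and 746, 1340 and 881 in TFEB-Dox. It rose by 1.53 (SE 0.49, limma adjusted p = 0.0191) and by 0.78 on the expressed-gene scale, and the TFEB groups did not overlap. The deposited-scale call ended without TFEB-Veh replicate 1, TFEB-Dox replicate 2 or TFEB-Dox replicate 3 (adjusted p = 0.0922, 0.127 and 0.0507). NR1H3, the macrophage LXR, had 55.0, 71.4 and 52.3 in EV-Veh, 70.5, 66.3 and 54.7 in EV-Dox, 55.7, 49.0 and 68.5 in TFEB-Veh and 87.0, 166 and 168 in TFEB-Dox. Its values in TFEB-Dox were above all 9 controls on the deposited scale, with a called change of 1.22 (SE 0.32, limma adjusted p = 0.00336) that was not called on the expressed-gene scale (0.47, adjusted p = 0.284). The exons of NR1H3 overlap those of ACP2, a lysosomal phosphatase gene on the opposite strand, over 189 bases. ACP2 went from 69.9 ± 12.3 in TFEB-Veh to 838 ± 188 in TFEB-Dox (SD, n = 3), and its part in the NR1H3 values was not tested. ABCA1, the pump that loads lipid onto apolipoprotein A-I, had 719, 1396 and 568 in EV-Veh, 700, 482 and 262 in EV-Dox, 464, 603 and 489 in TFEB-Veh and 434, 521 and 428 in TFEB-Dox. The TFEB groups overlapped, and the change was -0.17 (SE 0.48, limma adjusted p = 0.845). On the expressed-gene scale it was -0.91, called lower (SE 0.15, limma adjusted p = 0.000113). ABCG1, the other pump, was not called on either scale (-0.33 and -1.06). The ratio of SOAT1 to ABCA1 was 0.343 to 0.562 in the 9 controls and 3.42, 3.99 and 3.65 in TFEB-Dox.

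Some macrophage markers moved with these genes. The sum of 7 of them was 146 to 235 normalized reads in EV-Veh, 222 to 245 in EV-Dox, 166 to 274 in TFEB-Veh and 27200 to 42800 in TFEB-Dox. Most of the TFEB-Dox sum came from GPNMB and MARCO, which averaged 24434 and 8584 there. Of the 6 that were tested, 4 were called higher under each scaling against TFEB-Veh, led by GPNMB and MARCO, beside 12.6% of all tested genes. MRC1 was at 0 in all 12 libraries. CD14 (39.0 ± 15.8 in TFEB-Veh and 66.9 ± 22.6 in TFEB-Dox) and MSR1 (23.8 ± 7.28 and 31.9 ± 5.73) overlapped between these groups (SD, n = 3). The part of this shift in the rise of APOE, APOC1 and SOAT1 was not tested. The sum of 6 lymphoid markers was 181 to 346 in the controls and 967 to 1470 in TFEB-Dox, where NKG7 alone averaged 1060, and the sum of 7 fibroblast, epithelial and liver markers was 182 to 420 in the controls and 207 to 263 in TFEB-Dox.

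The comparisons with the other 2 controls use the same 3 TFEB-Dox libraries, so they are not independent of the first. Against EV-Dox, where both lines had the drug, 16 members were called higher and 1 lower on the deposited scale (background 27.2% and 5.37% of the tested genes, 55.8% and 0.686% of expressed genes), and 11 and 14 on the expressed-gene scale (14.2% and 57.6%). Of the 20 expressed members 8 were higher and 7 lower there, against 36.4% and 35.4% of expressed genes. MSMO1, NSDHL and STARD4 joined the 8 that rose against TFEB-Veh, so that 11 were higher under each scaling (13.3% of all genes) and TM7SF2 was lower (5.37%). LSS was higher than in EV-Dox by 4.99 on the deposited scale and 3.61 on the expressed-gene scale, and ACAT2 by 3.87 and 2.5. Against EV-Veh 6 were called higher and 4 lower on the deposited scale (12.2% and 8.51% of all genes), and the 4 that were lower, MVK, SQLE, TM7SF2 and MYLIP, were so under each scaling. With 1 library left out the deposited-scale lower count was 1 without TFEB-Dox replicate 1, 2 without TFEB-Dox replicate 3 or EV-Veh replicate 2, and 7 without EV-Dox replicate 3. Of the 20 expressed members 3 were higher and 2 lower (17.6% and 9.99% of expressed genes), and on the expressed-gene scale 7 and 9 (34.6% and 33.3%). SQLE differed from EV-Veh by a log2 change of -1.63 on the deposited scale (SE 0.48, limma adjusted p = 0.0101).

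Against each of the 3 controls at once, 6 members were called higher on the deposited scale, ACAT2, LSS, SOAT1, NR1H3, APOE and APOC1, and 1, TM7SF2, was called lower. Of all tested genes 10.7% were called higher and 1.35% lower by this rule. On the expressed-gene scale the counts were 9 and 10, against 11.6% and 13.8%. The lower count of 1 was 0 without TFEB-Veh replicate 2 or TFEB-Dox replicate 2 or 3.

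In the EV line several enzymes were lower with doxycycline than with vehicle. On the deposited scale 19 members were called lower and 0 higher, beside 23.3% and 3.39% of all tested genes and 51.2% and 0.37% of expressed genes. The median log2 change of the members was -1.33, that of the expressed genes -1.29. Under each scaling 8 fell, against 5.75% of all tested genes: the enzymes HMGCS1, FDPS, SQLE, LSS, MSMO1, EBP and DHCR7 and the SREBP target INSIG1. All 8 are expressed genes, of which 17.5% were called lower and 20.9% higher on the expressed-gene scale, beside 8 and 3 of the 20 expressed members. HMGCS1 went from 1233 ± 489 to 286 ± 96.0 normalized reads and INSIG1 from 1187 ± 534 to 338 ± 210 (SD, n = 3), with expressed-gene changes of -0.80 (limma adjusted p = 0.0163) and -0.68 (limma adjusted p = 0.00847). On the expressed-gene scale 8 members were lower and 9 higher (5.75% and 44.1% of all genes), and the median change of all tested genes there was 1.05. The 9 that were higher, among them TM7SF2, SREBF1, SOAT1, APOE and NR1H3, were not called on the deposited scale. These counts rested on single libraries. On the deposited scale the lower count was 1 without EV-Veh replicate 2 and 8 without EV-Dox replicate 3, and on the expressed-gene scale it was 3 without EV-Veh replicate 2, 4 without EV-Dox replicate 3, and 5 without EV-Dox replicate 2 or EV-Veh replicate 1. The expressed-gene count of 9 higher was 3 without EV-Veh replicate 2 and 4 without EV-Dox replicate 3. HMGCS1, EBP and INSIG1 were called lower in 12 of 12 such fits on the expressed-gene scale. Between the vehicle groups of the 2 lines no member was called by limma on either scale, nor by edgeR or DESeq2, and limma called 0 of 23128 genes. At an unadjusted p under 0.05, 0 members passed on the deposited scale and 1 on the expressed-gene scale, beside 1754 and 2004 of all tested genes.

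The difference between the lines in the response to doxycycline was tested as an interaction. By the interaction of vector and drug, 16 were called more positive in the TFEB line and 1 more negative on the deposited scale, where 29.2% and 6.15% of all genes were, or 62.6% and 0.0686% of expressed genes. Of the 20 expressed members 11 were more positive, a share no higher than that of expressed genes. On the expressed-gene scale 7 of the 20 expressed members were more positive and 7 more negative, against 31.1% and 29.9% of expressed genes. Under each scaling 9 were more positive (10.8% of all genes): ACAT2, LSS, NSDHL, EBP, SC5D, STARD4, SOAT1, NR1H2 and APOC1. On the expressed-gene scale NSDHL and NR1H2 were near the threshold (limma adjusted p = 0.0491 and 0.0422). Their calls there stood in 3 and 4 of 12 fits that left 1 library out, and those of the others in 12 of 12. TM7SF2 was more negative under each scaling (6.15%). On the deposited scale this lower count was 0 without any 1 of EV-Veh replicates 1 and 3, EV-Dox replicates 1 and 2, TFEB-Veh replicate 2 and TFEB-Dox replicates 2 and 3. LSS and EBP fell with the drug in the EV line and rose with it in the TFEB line under each scaling, with interactions on the expressed-gene scale of 3.6 (limma adjusted p = 8.82e-09) and 1.24 (limma adjusted p = 0.000432). For APOE the interaction was 1.85 on the deposited scale and turned to -0.11, not called, on the expressed-gene scale, and for NR1H3 it turned from 1.11 to -0.90, not called. SQLE and DHCR7 were not called higher in either line, and their interactions were called more negative on the expressed-gene scale (-0.95 and -0.87) and not called on the deposited scale (1.08 and 1.17).

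**Figure D4:**
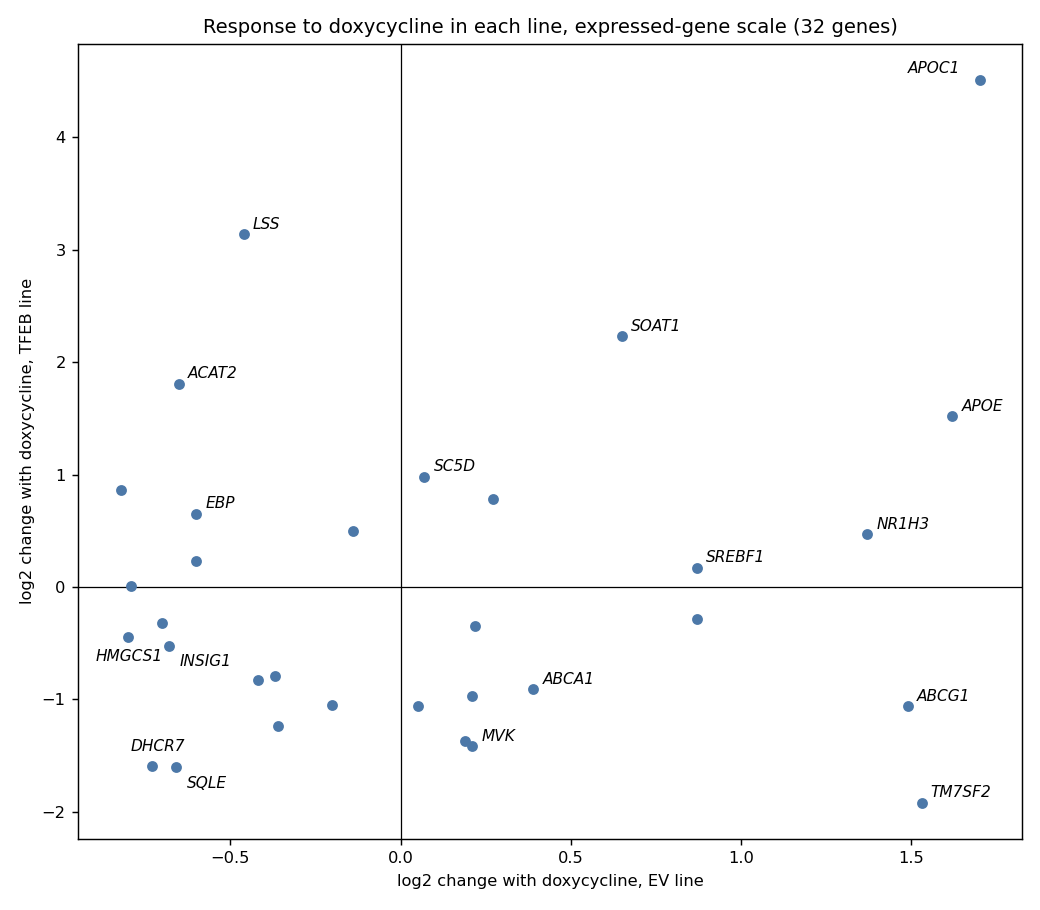
Log2 change with doxycycline in the EV line (x axis) and in the TFEB line (y axis) for the 32 genes on the expressed-gene scale, where each point is 1 gene. LSS (-0.46 and 3.14), ACAT2 and EBP lie in the upper left, TM7SF2 (1.53 and -1.92) in the lower right, and SQLE, DHCR7, HMGCS1 and INSIG1 in the lower left.

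Other genes of the pathway were taken from lists and compared between TFEB-Dox and TFEB-Veh. Of 14 genes of lipoprotein uptake and intracellular cholesterol transport, 5 rose under each scaling and 0 fell, where 12.6% and 4.47% of all tested genes did, beside a list median of 1.09 on the deposited scale and 0.34 on the expressed-gene scale. The leading ones were NPC2 and NPC1, which move cholesterol out of the lysosome, NPC2 by 3.93 (SE 0.45, limma adjusted p = 1.78e-09) and NPC1 by 3.31 (SE 0.51, limma adjusted p = 1.59e-06), and SCARB1, a lipoprotein receptor, by 3.0 (SE 0.56, limma adjusted p = 4.75e-05). On the deposited scale 5 of the 14 were called higher and 0 lower, beside 31.5% and 3.51% of expressed genes. On the expressed-gene scale 7 of the 14 were called higher and 1 lower, beside 34.4% and 33.2% of expressed genes. Of 11 fatty acid genes that SREBP also drives, 5 rose and 1 fell under each scaling, beside the same 12.6% and 4.47% of all tested genes. On the expressed-gene scale 5 were called higher and 5 lower, where 14.4% and 20.7% of all genes were, or 34.4% and 33.2% of expressed genes. The list median was 0.14 on the deposited scale and -0.61 on the expressed-gene scale. ACLY, ACACA, FASN and FADS1 were called lower on the expressed-gene scale (-0.92, -1.49, -1.84 and -1.22) and not on the deposited scale. The elongase ELOVL6 went from 345 ± 124 to 6720 ± 2044 normalized reads, a change of 4.31, LPIN1 rose by 3.12 and ME1 by 2.72, and the desaturase gene FADS2 fell from 813 ± 277 to 183 ± 38.2 (SD, n = 3). ME1 also rose with doxycycline in the EV line under each scaling, by 1.11 on the deposited scale and 2.37 on the expressed-gene scale. Against EV-Dox, ME1 in TFEB-Dox was called higher on the deposited scale (1.84) but not on the expressed-gene scale (0.47). Among genes of SREBP processing and sterol sensing, the protease MBTPS2 rose by 1.34 and was called under each scaling, while RNF139 was called higher on the deposited scale only among these 2 scales (1.09 and 0.35).

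Of 8 genes in a list of the isoprenoid branches, which also holds LBR, 2 rose and 1 fell under each scaling, beside 12.6% and 4.47% of all tested genes. LBR had 1210 ± 484 normalized reads in TFEB-Veh and 896 ± 252 in TFEB-Dox (SD, n = 3). On the expressed-gene scale these values were 1316 ± 238 and 596 ± 56.3 (SD, n = 3). DHDDS and NUS1, the 2 subunits of the enzyme that makes the dolichol precursor, rose by 1.95 (limma adjusted p = 0.00157) and 1.46 (limma adjusted p = 0.0269), and PDSS1, which makes the side chain of coenzyme Q, fell from 314 ± 66.3 to 137 ± 4.83 normalized reads (SD, n = 3). Among further LXR targets, SMPDL3A was called higher on the deposited scale (1.23) but not on the expressed-gene scale (0.50). Of 6 oxysterol and bile acid enzymes, 4 were tested and CYP27A1, the mitochondrial sterol hydroxylase, rose by 3.77 (SE 0.34, limma adjusted p = 4.45e-12), from 18.2 ± 12.2 to 236 ± 67.0 normalized reads (SD, n = 3). CH25H and CYP7B1 were under the filter.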

How the data were processed

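RNA of 12 HL60 samples was sequenced, 3 in each of 4 groups taken from the sample titles. Per the labels' protocols, a NuGEN Ovation kit for FFPE material made the libraries. STAR 2.5.3a and HTSeq 0.6.1 were used, per the submitters' processing notes. Build, annotation release and strand setting: not given in the sources used here. The deposited values are a normalized signal, called normalized reads here, and the steps the authors took are not given in the sources. The values behave as reads divided by 1 factor per library, since within a library values were whole multiples of its lowest value above 0 (tolerance 0.01). That lowest value is near 1 for replicate 2 of EV-Veh and replicate 3 of TFEB-Veh, where reads recovered cannot be told from rounding.

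Genes with a mean of at least 10 were fitted by limma 3.58.1 (R 4.3.3) as log2(value + 1), with 1 mean per group over all 12 libraries, a variance trend, two-sided tests and Benjamini-Hochberg adjustment at 0.05. Alternatives were a pseudocount of 5, no filter, 4 other scalings, a replicate block, each library left out, and edgeR 4.0.16 and DESeq2 1.42.0 on recovered reads. Simulated data were used to test the fit. The members, lists and the rule for named genes (members called under each scaling or against each control, the 2 largest changes per role, SREBF1, SREBF2, INSIG1, ABCA1 and APOE, and up to 3 called genes per other list) were chosen with earlier results of these data known. Some genes of 2 of the other lists are not reported here, so no counts are given for those lists.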

Additional observations from a re-analysis of the deposited data

Results flagged for a closer look

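The response to doxycycline differed between the TFEB and EV lines, by the limma interaction term on the deposited scale, for 17 members, 16 more positive and 1 more negative, beside 29.2% and 6.15% of all tested genes and 62.6% and 0.0686% of expressed genes. The difference (TFEB line minus EV line, log2) was 5.63 for LSS, 4.75 for APOC1, 4.50 for ACAT2, 3.61 for SOAT1, 3.28 for EBP, 2.95 for SC5D, 2.85 for NSDHL, 2.68 for STARD4 and 2.54 for NR1H2, and these 9 held under each of 5 scalings, as did -1.44 for TM7SF2. On the expressed-gene scale the calls of NSDHL and NR1H2 stood in only 3 and 4 of 12 fits that left 1 library out. The difference was 3.72 for IDI1, 2.83 for MSMO1, 2.39 for HMGCS1, 2.32 for CYP51A1, and 2.19 for INSIG1, which were not called on the expressed-gene scale. It was 1.85 for APOE and 1.11 for NR1H3, which turned to -0.11 and -0.90 on the expressed-gene scale, neither called there.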

How the results depend on the processing

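A pseudocount of 5 and TMM scaling left each count of members called within 1.5 times its deposited-scale value. The other scalings raised the lower count against TFEB-Veh from 1 to 16 (equal totals), 13 (expressed genes) and 12 (upper quartile), against EV-Dox from 1 to 14, 14 and 10, against EV-Veh from 4 to 15, 14 and 12, in the interaction from 1 to 14, 14 and 7, and against each control from 1 to 11, 10 and 8. In the same order, the interaction's higher count fell from 16 to 9, 9 and 10, and in the EV line the higher count went from 0 to 7, 9 and 7 and the lower count from 19 to 10, 8 and 10. The higher count against EV-Veh went from 6 to 10 with expressed genes, upper quartile or edgeR. On recovered reads the lower count against TFEB-Veh was 5 by edgeR and 3 by DESeq2, and against EV-Veh 7 by both; edgeR gave 1 higher in the EV line and 2 lower in the interaction. Without a filter the lower counts against TFEB-Veh, in the interaction and against each control were 0. Changes against TFEB-Veh that turned sign and were called on one side were HMGCS1 (-0.56 with equal totals, -0.69 on the expressed-gene scale without TFEB-Veh replicate 1), FDFT1 (-0.46 with equal totals, -0.35 to -0.48 with 1 library left out) and INSIG1 (-0.64 with equal totals, -0.53 with expressed genes, down to -0.62, -0.55 and -0.57 with 1 library left out). CYP51A1 (-0.42), INSIG2 (-0.40) and MSMO1 (-0.10) turned sign with equal totals without a call on either side. The cause was not tested.

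With each library left out, on the deposited scale and then the expressed-gene scale (the latter chosen after seeing the data), the higher and lower counts ran from 6 to 12 and 0 to 1, then 8 to 10 and 12 to 15 against TFEB-Veh; from 13 to 19 and 1 to 1, then 8 to 12 and 13 to 15 against EV-Dox; from 6 to 7 and 1 to 7, then 9 to 10 and 12 to 14 against EV-Veh; from 0 to 1 and 1 to 24, then 3 to 9 and 3 to 9 in the EV line; from 13 to 21 and 0 to 1, then 7 to 10 and 12 to 15 in the interaction; and from 5 to 7 and 0 to 1, then 8 to 9 and 9 to 13 against each control. The replicate numbers were shared between groups. Correlations of same-numbered samples, each gene centred within its group, ran from -0.6 to 0.69, and 6 of 12 libraries correlated best with their own number. These correlations were taken on the deposited scale, where library totals differ, so they cannot decide whether the samples are paired. With a replicate block 12 members were called higher against TFEB-Veh, and no count moved by over 1.5 times. Depth limits APOE, APOC1 and CYP51A1, which had few reads in the controls.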
